A study of Mus musculus with 2 samples.

Results

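The lysosome is built from acid hydrolases, membrane proteins that hold and transport their contents, and a proton pump that keeps the lumen acid. This report describes 37 genes of that organelle in cultured mouse macrophages, chosen by gene symbol and all found once among the 31053 genes of both count matrices. They comprise 14 proton pump genes, those whose symbols begin with Atp6, and 23 other genes for enzymes, activators, membrane proteins and transcriptional regulators. Bone marrow cells of wild-type 129Sv mice were grown into bone marrow derived macrophages with 50 ng/ml M-CSF, the cytokine on which macrophages depend, and 10% fetal bovine serum. Treatment began on day 7 and lasted 18 h, with 1 µg/ml of Tamm-Horsfall protein (THP here, also called uromodulin, a protein secreted by the kidney) in a truncated form that does not polymerize, or with the vehicle, 5% dextrose. RNA was read from single cells in droplets, and each captured molecule was counted once by its unique molecular identifier (UMI). There was 1 THP library and 1 vehicle library, so no test between the groups was possible, and treatment cannot be told apart from culture dish or library preparation. Values are given in the order THP, then vehicle, unless a sentence says otherwise.

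The V-ATPase proton pump has a membrane-bound V0 sector that carries protons and a cytosolic V1 sector that splits ATP. Macrophages rely on lysosomes to digest what they engulf, and osteoclasts, which arise from the same precursors, send the pump to the cell surface to dissolve bone. The transcription factors Tfeb, Tfe3 and Mitf are known to switch on many lysosomal genes through a promoter word built on CACGTG.

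That word was looked for in the promoters because the members share a known set of regulators. RefSeq promoter windows of GRCm38, from 250 bases before to 50 bases after the gene start, were at hand for 30 of the 37 members, all but Npc1, Asah1, Atp6v0d2, Atp6v1b2, Atp6v1c1, Atp6v1g1 and Atp6v1h. The core CACGTG, on either strand, stood in 9 of these 30 windows (30%), against 8.09% of 27025 genes with a window. Its longer form CACGTGAC, read as GTCACGTG on the other strand and always containing the core, stood in 7 windows (23.3%), against 2.55% of all genes. The palindrome TCACGTGA, which also contains the core, stood in 4 (13.3%, against 1.12%). GTCACGTG followed directly by AC, a longer palindrome that contains all of the others, stood in 0 of the 30, against 0.370% of all genes. A match is a description of the letters and not a site in use. The 7 members with the longer form are shown with 10 bases on either side, 5′ to 3′ on the strand of the gene, with the word in capitals.
Atp6v0b: gtgcgcggggGTCACGTGgggtcggcgc
Atp6v0d1: ccctactgcgGTCACGTGagacgcggtg
Lamp1: tgccgactggCACGTGACcacatcacgt
Glb1: ctgcttctgaGTCACGTGgcctacagag
Mcoln1: gcgccccgctCACGTGACcgcggcgcat
Lgmn: tggaatgtctGTCACGTGgtccatttta
Gla: tgagatctcgGTCACGTGagcaactctc

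These stretches lie on GRCm38 at chr4:117887350-117887377 (minus strand) for Atp6v0b, chr8:105566052-105566079 (minus) for Atp6v0d1 and chr8:13159123-13159150 (plus) for Lamp1. The others are at chr9:114401018-114401045 (plus) for Glb1, chr8:3500464-3500491 (plus) for Mcoln1, chr12:102439126-102439153 (minus) for Lgmn and chrX:134601184-134601211 (minus) for Gla. The word begins 5 bases before the RefSeq gene start in Atp6v0d1, 28 in Lamp1, 38 in Atp6v0b, 45 in Mcoln1, 50 in Glb1, 51 in Lgmn and 196 in Gla. GENCODE places the Mcoln1 stretch in an exon of Mcoln1, the Lgmn stretch in an intron of a longer Lgmn transcript, and the Gla stretch in an exon of the neighbouring gene Hnrnph2; it annotates no gene at the other 4. A further copy of the longer form in Mcoln1 begins 73 bases before its start. Scaled to total UMIs, 3 of the 7 genes (Lgmn, Atp6v0b and Atp6v0d1) were higher and 4 lower in the THP library, where 67.6% of all tested genes were lower. With the TMM factors described below all 7 lay above 0, as did 29 of the 35 tested members and 4710 of the 8012 tested genes. Mcoln1, 1 of the 7, was under the minimum level set below for a tested gene.

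The THP library held 12123 kept cells and 224825484 UMIs (median 16113 per cell), and the vehicle library 10978 cells and 207662132 UMIs (median 17223). The 37 members took 0.753% of all THP UMIs and 0.761% of all vehicle UMIs. Proton pump genes took 0.229% and 0.216%, and the other members 0.524% and 0.545%. All 10 macrophage markers were detected in both libraries, but the cultures also held other blood cells, so cells were sorted in silico by the mean score of marker genes that include no member, and 6 gates with at least 200 cells per library were compared. The markers do include other lysosomal genes, Cd68 for the macrophage gate and Acp5 and Ctsk for the osteoclast-like gate. The macrophage gate (marked by genes such as Adgre1, Csf1r and C1qa) held 2474 THP and 1762 vehicle cells, the osteoclast-like macrophage gate (Mmp12, Dcstamp, Nfatc1) 522 and 493, and the monocyte gate (Ly6c2, Ccr2, Vcan) 869 and 1026. The neutrophil gate (S100a8, Ngp, Ltf) held 1469 and 2034 cells, the myeloid progenitor gate (Mpo, Elane, Kit) 1098 and 1523, and the MHC class II high antigen-presenting gate (H2-Aa, Cd74) 890 and 1007. A further 4311 and 2754 cells were ungated, and 1617 and 1349 cells lay within 0.1 of a gate limit, so the gates are ranges of a score and not fixed cell types. The libraries shared 42 barcodes, 38 of them in kept cells; leaving those cells out changed the direction of 0 members.

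Over all kept cells the lysosomal genes differed little between the libraries. UMIs were summed over the cells of a library and scaled to a total of 1000000, giving CPM, and the difference is the log2 ratio of CPM + 1, THP over vehicle. Of the 37 members, 35 reached 10 CPM in at least 1 library, and 0 of these 35 passed 2-fold in either direction, where 0.911% of 8012 genes were past 2-fold higher and 2.97% past 2-fold lower. At 1.5-fold, 1 member was lower (Man2b1) and 0 were higher, against 17.3% and 2.33% of all genes. The THP value was higher for 13 members and lower for 22 (62.9%, against 67.6% of all genes lower), with a median log2 ratio of -0.05 against -0.18 over all genes. Scaling the libraries with TMM factors, which assume that most genes do not differ, moved the median of all genes to 0.10 and that of the members to 0.22. Then 29 of the 35 members and 4710 of the 8012 genes were higher. At the 10 CPM minimum the median of the members over all kept cells thus exceeded that of all genes under both scalings, and a sign against 0 rests on the scaling. Inside the macrophage gate it did not exceed that of all genes (-0.164 against -0.159, and 0.046 against 0.053 with TMM factors). In the other compared gates it did. The minimum level also matters: scaled to total UMIs at a minimum of 50 CPM, the median of all genes was -0.06. Of the 28 members at that level, 12 were higher and 16 lower. Their median was not set against that of all genes at 50 CPM.

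Exact Poisson 95% intervals of the 2 libraries, which cover counting error only, were apart for 11 members with the higher value in THP and for 18 with the lower value. At this depth such intervals were apart for 26.3% and 61.3% of all genes, so they say little about the members. The pump genes had a median log2 ratio of -0.05 (5 higher and 8 lower of 13) and the other members -0.07 (8 higher and 14 lower of 22), a difference of 0.016.

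Within the membrane sector of the pump the members went different ways. Atp6v0b, a proton-carrying ring subunit, was at 493 CPM (95% interval 490.4 to 496) with THP and 421 (418 to 424) with vehicle, giving a log2 ratio of 0.23. Atp6v0d1, the widely used form of the d subunit that couples the sectors, was at 129.8 CPM (128 to 131) and 112 (111 to 114), a log2 ratio of 0.21. Both were higher in the THP library under TMM scaling too. The a1 subunit Atp6v0a1, which forms part of the proton path, was lower at 60.6 CPM (59.6 to 61.6) against 81.8 (80.5 to 83.0), a log2 ratio of -0.43, which was -0.14 with TMM factors. Atp6v0d2, the d subunit known from osteoclasts, was at 24.1 CPM (23.4 to 24.7) and 28.2 (27.5 to 28.9), a log2 ratio of -0.22 that turned to 0.06 with TMM factors.

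Atp6v0c, the main ring subunit, was at only 2.05 CPM (1.87 to 2.25) and 3.35 (3.1 to 3.61). GENCODE lists processed pseudogenes of Atp6v0c that are not among the counted genes. They match 465 bases of an Atp6v0c transcript of 1183 bases with 97.2% and 99.8% identity. How reads shared with such copies were counted is not known, and what part they had in the level of Atp6v0c was not tested. Its value is taken as uncertain, and it did not reach the 10 CPM minimum.

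Among the V1 subunits, Atp6v1g1, a stalk subunit, had the highest ratio of the pump. It was at 548 CPM (545 to 551) with THP and 440 (437 to 442) with vehicle, giving a log2 ratio of 0.32 that exceeded that of 93.5% of all genes. At the other end stood the regulatory subunit Atp6v1h with 51.0 CPM (50.1 to 52.0) and 61.1 (59.99 to 62.1), a log2 ratio of -0.25, and the C subunit Atp6v1c1 with 84.8 CPM (83.6 to 86.0) and 96.5 (95.2 to 97.9), a log2 ratio of -0.18. The signs of Atp6v1h and Atp6v1c1 turned with TMM factors, to 0.03 and 0.10. Atp6v1a and Atp6v1b2, the subunits that bind ATP, had log2 ratios of -0.09 and -0.16, Atp6v1d -0.02 and Atp6v1e1 0.04. Of the accessory proteins that help the pump to assemble, Atp6ap1 was at 125 CPM (123 to 126) and 110.0 (109 to 111), a log2 ratio of 0.18, and Atp6ap2 had a log2 ratio of -0.05.

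The enzyme with the lowest ratio of all tested members was Man2b1, the lysosomal alpha-mannosidase that trims sugar chains. Man2b1 (ENSMUSG00000005142, GRCm38 chromosome 8, 85083270 to 85098282, plus strand) was at 122 CPM (120.2 to 123) with THP and 189.9 (188 to 192) with vehicle. Its log2 ratio of -0.64 lay at percentile 14.1 of all genes, and it was -0.36 with TMM factors. Acid ceramidase, Asah1, was at 99.5 CPM (98.2 to 101) and 134 (133 to 136), a log2 ratio of -0.43. Lysosomal acid lipase, Lipa, which frees cholesterol and fatty acids from engulfed lipoproteins, was at 232 CPM (230.3 to 234) and 303 (300.3 to 305), a log2 ratio of -0.38. Both remained below 0 with TMM factors, at -0.15 for Asah1 and -0.10 for Lipa.

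Legumain, Lgmn, an endopeptidase that cuts after asparagine, had the highest ratio of the tested members. Lgmn (ENSMUSG00000021190, chromosome 12, 102394084 to 102439813, on the minus strand) reached 231 CPM (229 to 233) and 180.4 (179 to 182), a log2 ratio of 0.35 at percentile 94.8. Progranulin, Grn, a secreted and lysosomal glycoprotein, came next among the members outside the pump with 505 CPM (502 to 508) against 419 (416 to 421), a log2 ratio of 0.27. The other soluble enzymes and activators had log2 ratios between -0.22 (Gla, alpha-galactosidase) and 0.04 (Gusb, beta-glucuronidase): Psap -0.14, Ppt1 -0.11, Glb1 -0.09, Gaa -0.05, Neu1 -0.01, Hexa 0.02 and Tpp1 0.02. For Hexa, Neu1, Tpp1, Gaa and Glb1 the counting intervals of the libraries overlapped.

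The proteins that export cholesterol from the lysosome differed in sign. Npc1, in the membrane, was at 29.5 CPM (28.8 to 30.2) and 37.4 (36.6 to 38.2), a log2 ratio of -0.33 that stayed below 0 with TMM factors. Its soluble partner Npc2 was at 777 CPM (773 to 780.2) and 696 (693 to 700.0), a log2 ratio of 0.16. The abundant membrane glycoproteins Lamp1 and Lamp2 had log2 ratios of -0.17 and -0.31, and the tetraspanin Cd63 -0.03.

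Among the regulators, Tfeb was at 16.6 CPM (16.1 to 17.1) and 20.1 (19.5 to 20.7), a log2 ratio of -0.26 that became 0.01 with TMM factors. Tfe3 was at 56.2 CPM (55.2 to 57.2) and 51.1 (50.1 to 52.1), a log2 ratio of 0.14, and Mitf at 39.2 CPM (38.4 to 40.0) and 37.1 (36.3 to 38.0), a log2 ratio of 0.08. Mcoln1, the lysosomal calcium channel, was at 6.87 CPM (6.53 to 7.22) and 7.22 (6.86 to 7.60), under the minimum, with overlapping intervals. None of these 4 genes came near 2-fold.

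**Figure D1:**
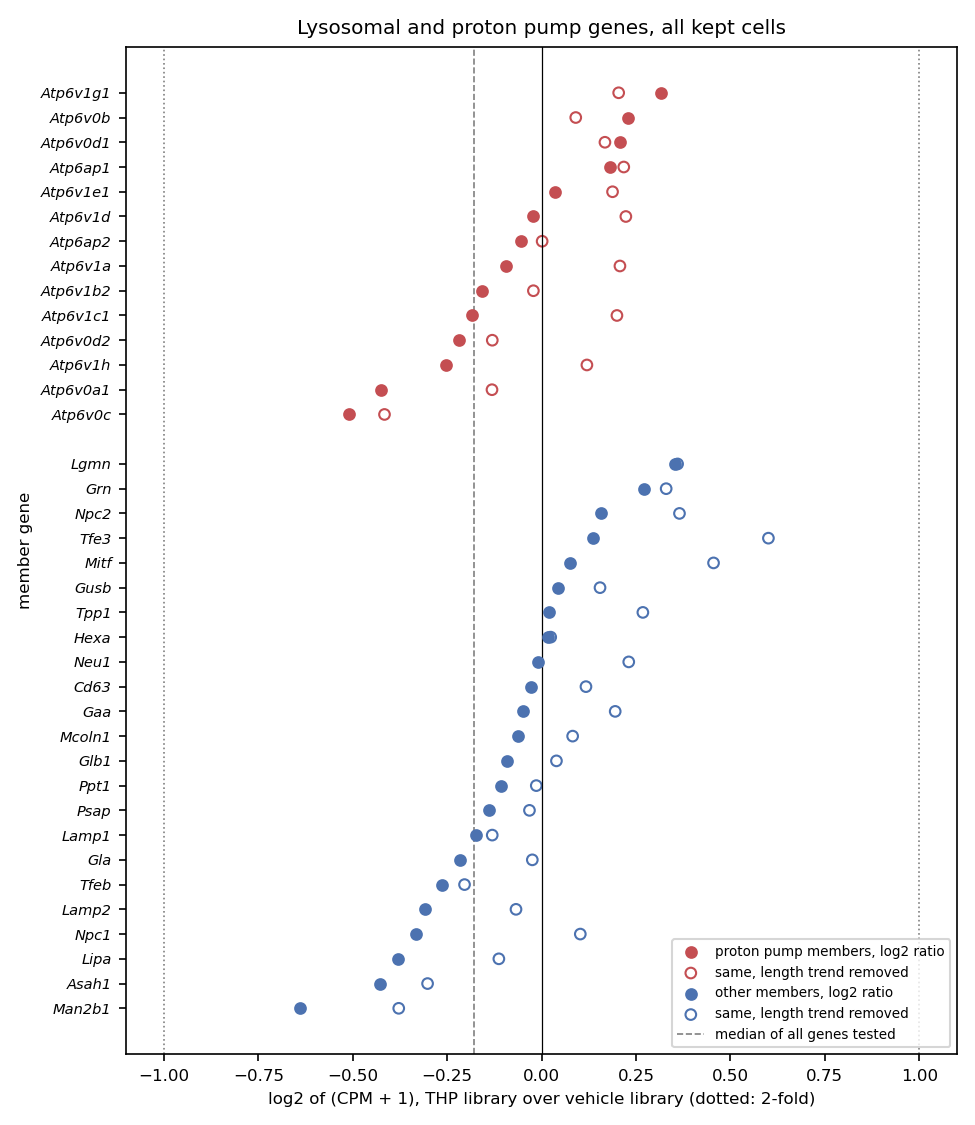
Log2 ratio of CPM + 1, THP over vehicle, for all 37 members over all kept cells (x axis; one row per gene, pump genes in red and the others in blue). Filled points are the ratios and open points the same after removal of the trend with transcript length, the dashed line is the median of all tested genes (-0.18), and every point lies inside the dotted 2-fold lines; with TMM factors 16 of the 35 tested members change sign.

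The ratio between the libraries followed transcript length over the whole transcriptome, and the pump genes followed it closely. Across 8011 genes Spearman's rho between the log2 ratio and the longest GENCODE transcript was -0.55, a description across genes that share the 2 libraries and are not replicates. Across the 13 tested pump genes rho was -0.78, and across the 22 other members it was -0.19. Inside the 6 gates rho ranged from -0.69 to -0.85 for the pump genes and from -0.062 to -0.34 for the other members. The pump genes with the highest ratios have short transcripts, 1000 bases for Atp6v0b, 1135 for Atp6v1g1 and 1629 for Atp6v0d1. Atp6v1a, Atp6v1c1, Atp6v1h and Atp6v0a1, all at or under -0.09, have transcripts of 4234, 4927, 4829 and 4162 bases. The median share of a cell's UMIs from ribosomal protein genes, whose transcripts are short, was 17.5% with THP and 15.5% with vehicle. Its part in the result was not tested.

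Taking the trend with length out of every ratio left the pump genes with a median of 0.17 and the other members with 0.071. Atp6v1a, Atp6v1c1 and Atp6v1h then moved above 0, to 0.21, 0.20 and 0.12, and so did Npc1, at 0.10. Man2b1 (-0.38), Asah1 (-0.30), Atp6v0a1 (-0.13) and Lipa (-0.11) stayed below 0, and Lgmn (0.36), Grn (0.33), Atp6v1g1 (0.20) and Atp6v0b (0.09) above it.

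**Figure D2:**
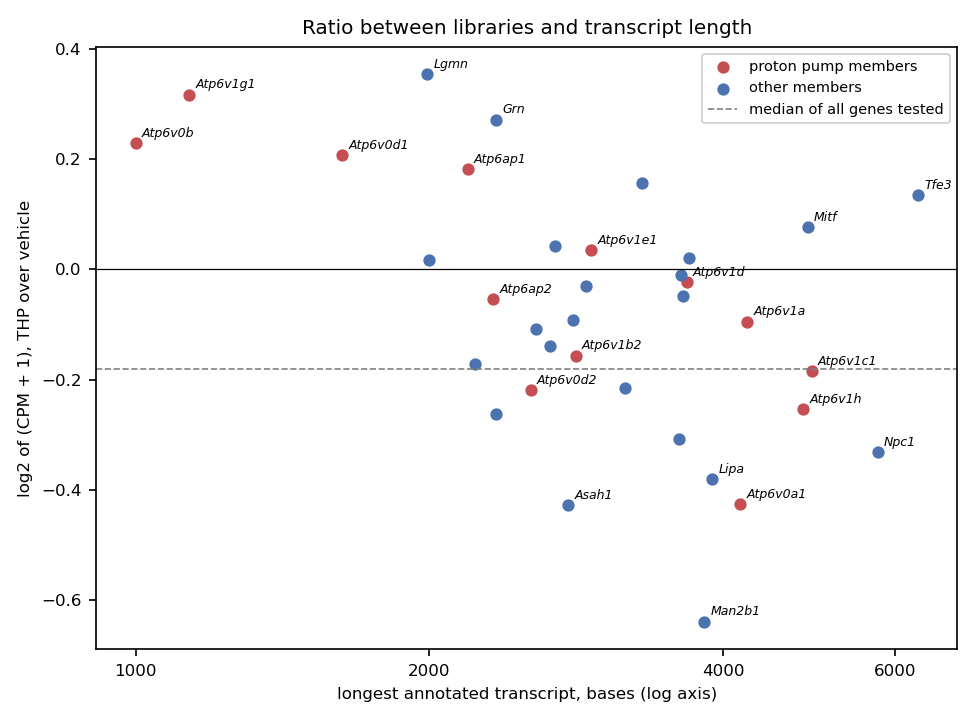
Log2 ratio of CPM + 1, THP over vehicle (y axis), against the length of the longest annotated transcript in bases (x axis, log scale) for the 35 members at 10 CPM or more over all kept cells; pump genes are red, other members blue, and the dashed line is the median of all genes. The pump genes run from Atp6v0b and Atp6v1g1 at upper left to Atp6v1h and Atp6v0a1 at lower right (rho -0.78, n = 13), and the other members scatter more (rho -0.19, n = 22).

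The libraries also differed in their mix of cells, with 20.4% of THP and 16.1% of vehicle cells in the macrophage gate and 12.1% and 18.5% in the neutrophil gate. When the same mix of gates was given to both libraries, the log2 ratio of Lgmn dropped to 0.12 and that of Grn to 0.08, while Lipa moved to -0.53, Npc1 to -0.48 and Atp6v0a1 to -0.59. Gusb, Hexa, Tpp1 and Mitf then turned below 0, so that 26 of the 35 members were lower and 9 higher, with a median of all genes of -0.18. The share of all genes lower under that mix was not counted, so this count is not read as particular to the members. Man2b1 (-0.66) and Atp6v1g1 (0.25) changed by less than 0.1 from their values over the captured mix.

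Inside each gate, most tested members were lower in the THP library when scaled to total UMIs, as 66.5% (progenitors) to 72.5% (neutrophils) of all genes were. With TMM factors most members were higher in each gate, where all genes ranged from 4394 higher and 3548 lower in macrophages to 3400 higher and 3570 lower in neutrophils. Of 32 members at 10 CPM or more in every gate, 16 were lower in all 6 gates (50.0%) and 3 higher in all 6 (9.38%), against 51.2% and 17.8% of 6129 genes, so the shares were near or under those of all genes. The 3 that were higher throughout were pump genes, Atp6v1g1 (log2 ratios 0.19 to 0.31), Atp6v0b (0.05 to 0.21) and Atp6v0d1 (0.09 to 0.24). The 16 that were lower throughout held 5 pump genes (Atp6v0a1, Atp6v1a, Atp6v1b2, Atp6v1c1 and Atp6v1h) and 11 others (Lamp1, Lamp2, Gla, Lipa, Npc1, Psap, Tpp1, Man2b1, Asah1, Ppt1 and Tfeb). With TMM factors 8 members stayed lower in all 6 gates, namely Lamp2, Gla, Lipa, Npc1, Man2b1, Asah1, Atp6v0a1 and Atp6v1h (25% of the 32, against 32.5% of all genes), and 15 were higher in all 6 (46.9%, against 37.2%).

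With the length trend removed 9 members were lower in all 6 gates (28.1%, against 25.4% of all genes) and 10 were higher (31.25%, against 30.7%). Lamp2, Gla, Man2b1, Asah1 and Atp6v0a1 were lower in all 6 gates when scaled to total UMIs, with TMM factors and with the length trend removed, although over all kept cells Gla turned from -0.22 to 0.06 with TMM factors. Atp6v0d1 and Atp6v1g1 were higher in all 6 gates under the same settings. The share of all genes that kept a direction under all of these settings was not counted, so neither group is read as particular to the members. Man2b1 had log2 ratios of -0.60 in macrophages, -0.47 in osteoclast-like cells, -0.64 in monocytes, -0.77 in neutrophils, -0.51 in progenitors and -0.75 in MHC class II high cells. In the macrophage gate Man2b1 stood at 127 CPM (124 to 129.9) against 193 (189 to 197). Asah1 ranged from -0.26 (progenitors) to -0.73 (MHC class II high cells) and Atp6v0a1 from -0.39 (progenitors) to -0.91 (neutrophils, 26.9 against 51.6 CPM). Gla ranged from -0.23 to -0.85, and its lowest ratio, in neutrophils, rested on 46 and 127 UMIs. Lamp2 ranged from -0.29 to -0.54.

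Lipa differed more inside the macrophage gate, at 298 CPM (294 to 302) against 478 (472 to 484) and a log2 ratio of -0.68 (-0.46 with TMM factors), than over all cells. Of the 35 members tested in that gate, 31 were lower (88.6%, against 66.9% of all genes), 21 of the 22 outside the pump and 10 of the 13 pump genes, where the median of all genes was -0.16 and that of the members -0.16. With TMM factors 15 of the 35 were lower. There 5 members, Lipa, Man2b1, Asah1, Atp6v0a1 and Atp6v0d2, were lower by 1.5-fold or more, against 14.8% of 7942 genes. In the other gates 1 member was lower by that much in osteoclast-like cells (16.7% of genes), 1 in monocytes (17.3%), 4 in neutrophils (28%), 0 in progenitors (16.1%) and 3 in MHC class II high cells (20.8%).

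Counting intervals were apart with the lower value in THP for 23 of 35 members in macrophages (53.3% of all genes), 15 of 35 in osteoclast-like cells (41.2%), 15 of 34 in monocytes (43.3%), 16 of 32 in neutrophils (43.8%), 11 of 34 in progenitors (47.2%) and 12 of 34 in MHC class II high cells (47.4%). They were apart with the higher value in THP for 3 members in macrophages (22.3%), 7 in osteoclast-like cells (14.3%), 3 in monocytes (15.5%), 3 in neutrophils (11.6%), 6 in progenitors (17.2%) and 7 in MHC class II high cells (16.1%). The gates of a library share its preparation and are not independent of each other. Over the gates the median ratio of the pump genes exceeded that of the other members, by the narrowest margin in the osteoclast-like gate (-0.04 and -0.08) and the widest in the MHC class II high gate (0.03 and -0.09). With the length trend removed the order turned in the osteoclast-like gate, to 0.038 and 0.044.

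**Figure D3:**
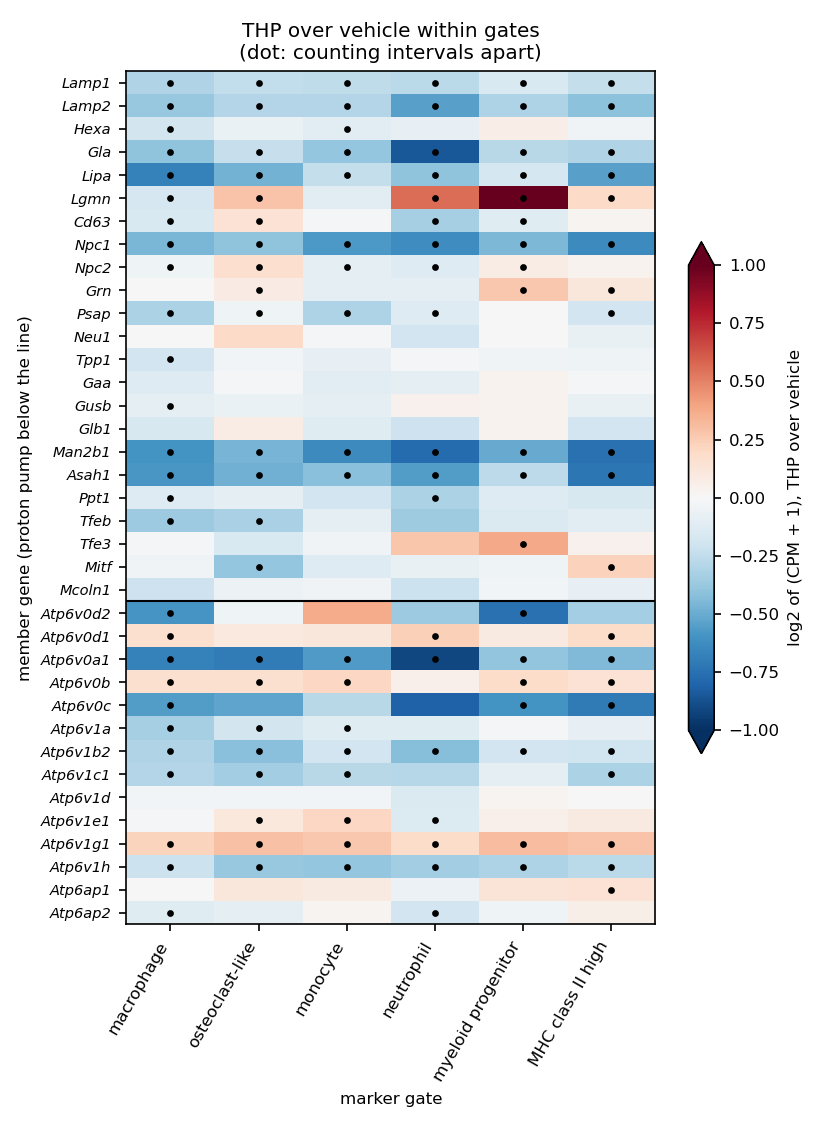
Log2 ratio of CPM + 1, THP over vehicle, of each member (rows, pump genes below the line) in the 6 compared gates (columns); red is higher in THP, blue lower, and a dot marks counting intervals that were apart. Man2b1, Asah1 and Atp6v0a1 are blue in every gate, Atp6v1g1 is red in every gate, and Lgmn is deepest red in the progenitor gate (1.24); values are scaled to total UMIs, and with TMM factors Atp6v1g1 stays above 0 and Man2b1, Asah1 and Atp6v0a1 below 0 in all 6.

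One member passed 2-fold in one gate. Lgmn in the myeloid progenitor gate was at 38.9 CPM (36.2 to 41.6, 807 UMIs) with THP and 15.8 (14.5 to 17.3, 520 UMIs) with vehicle, giving a log2 ratio of 1.24. In that gate 1.1% of 7883 genes were past 2-fold higher and 2.12% past 2-fold lower, and 1 of 34 tested members was. The other 5 gates had 0 members past 2-fold. All genes past 2-fold higher and lower made up 1.08% and 2.43% in macrophages, 0.755% and 2.46% in osteoclast-like cells, 0.892% and 2.39% in monocytes, 2.04% and 7.27% in neutrophils, and 1.13% and 4.06% in MHC class II high cells. Lgmn was also higher in THP neutrophils (26.5 against 17.6 CPM, log2 ratio 0.56), osteoclast-like cells (0.29) and MHC class II high cells (0.19), and lower in macrophages (429.8 against 482 CPM, -0.16) and monocytes (-0.10). With TMM factors the macrophage and monocyte values turned to 0.06 and 0.07.

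Macrophage markers, the C1q genes among them, were higher in THP cells of the same gates. The 10 macrophage markers summed to 408 CPM in THP progenitors and 221 CPM in vehicle progenitors, and to 358 and 224 CPM in neutrophils, with 0 of the 10 at 0 in either library. The C1q genes summed to 99.0 and 44.2 CPM in progenitors. In the 795 THP and 1132 vehicle progenitor-gate cells without any C1qa, C1qb or C1qc UMI, a cell set chosen after seeing the data, Lgmn stood at 14.01 CPM (12.1 to 16.2) and 6.95 (5.91 to 8.12), a log2 ratio of 0.92. The pseudocount of 1 CPM weighs on levels this low: the plain CPM ratio was 2.45 in all progenitor-gate cells and 2.02 in those without C1q UMIs. Progenitor-gate cells with such UMIs held Lgmn at 83.6 and 35.9 CPM. The same choice of neutrophil-gate cells left Lgmn at 15.6 and 9.09 CPM. Only 18.3% of THP and 13.5% of vehicle progenitor-gate cells had an Lgmn UMI, against 98.7% and 99.04% in the macrophage gate and 6.19% and 4.62% in the neutrophil gate, at median depths of 16887 and 19914 UMIs in progenitors, 21444.5 and 22511.5 in macrophages and 3568 and 3601 in neutrophils. What part free RNA or joined cells had in this value was not tested.

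The clearest pattern of these genes lay across the gates rather than between the libraries. Because the macrophage and osteoclast-like gates were drawn in part with lysosomal genes (Cd68, Acp5 and Ctsk), it is a description and no independent finding. Levels of a gene in different gates are shares of each gate's UMIs, and the neutrophil gate in particular spends 320352 (THP) and 290451 (vehicle) CPM on its 11 markers. The members took 1.31% and 1.36% of UMIs in osteoclast-like cells, and 0.901% and 1.02% in macrophages. Shares were 0.575% and 0.611% in MHC class II high cells, 0.562% and 0.616% in monocytes, 0.457% and 0.461% in progenitors, and 0.423% and 0.477% in neutrophils. The gates kept this order in both libraries except that monocytes and MHC class II high cells changed places, as did progenitors and neutrophils.

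Of the 35 members that reached 10 CPM in a gate in both libraries, 24 were highest in the osteoclast-like gate with THP and 22 with vehicle, where 10.5% and 10.1% of all genes were highest there. The macrophage gate was highest for 6 members in each library, against 24% and 20.1% of all genes, the neutrophil gate for 2 and 4 (13.1% and 16.4%) and the progenitor gate for 3 in each (32.7% and 33.9%). None was highest in monocytes (12.2% and 9.79%) or MHC class II high cells (7.6% and 9.63%). The lowest gate was the neutrophil gate for 20 THP and 14 vehicle members and the progenitor gate for 8 and 14. The share of all genes lowest in each gate was not counted, so these counts are not read as particular to the members. The highest gate was the same in both libraries for 31 of 35 members, all 22 outside the pump and 9 of 13 pump genes. That share was not counted over all genes either. The 4 pump genes with different highest gates were Atp6v0d1, Atp6v1d, Atp6v1e1 and Atp6ap1, whose 2 highest gates differed by 1.01-fold (Atp6v0d1, vehicle) to at most 1.102-fold (Atp6v1e1, vehicle).

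Enzymes and membrane proteins varied more between gates than the pump. The median ratio of the highest to the lowest gate was 4.34 with THP and 4.12 with vehicle for the other members, 2.42 and 2.51 for the pump genes, and 2.61 and 2.56 for all genes. Lipa stood at 649 CPM in THP osteoclast-like cells and 39.6 in neutrophils, and at 902 and 52.8 CPM in the vehicle library, ratios of 16.4 and 17.1. Cd63 stood at 1696 CPM in THP and 1537 CPM in vehicle osteoclast-like cells and was lowest in monocytes, at 137 and 139 CPM. Psap, which encodes the saposins that help enzymes to reach lipids, reached 2438 and 2512 CPM in the osteoclast-like gate and 359.5 and 394 CPM in neutrophils. Mitf, known as a regulator of osteoclasts, was at 71.8 and 94.4 CPM in that gate and 7.24-fold and 9.22-fold lower in progenitors. Gla spanned 10.3-fold with THP and 6.33-fold with vehicle.

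Some members peaked elsewhere. Lgmn was highest in macrophages, at 429.8 and 482 CPM, which was 2.096-fold and 2.87-fold above the osteoclast-like gate. Grn (740.4 and 738 CPM), Asah1, Npc1 and Tfe3 were highest in macrophages too, though Asah1 and Npc1 exceeded the osteoclast-like gate by only 1.06-fold to 1.14-fold. The sialidase Neu1 and the thioesterase Ppt1 were highest in neutrophils, with 75.2 and 86.2 CPM for Neu1 and 81.0 and 101 CPM for Ppt1. Acid alpha-glucosidase, Gaa, and beta-galactosidase, Glb1, were highest in progenitors, as was Atp6ap2.

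**Figure D4:**
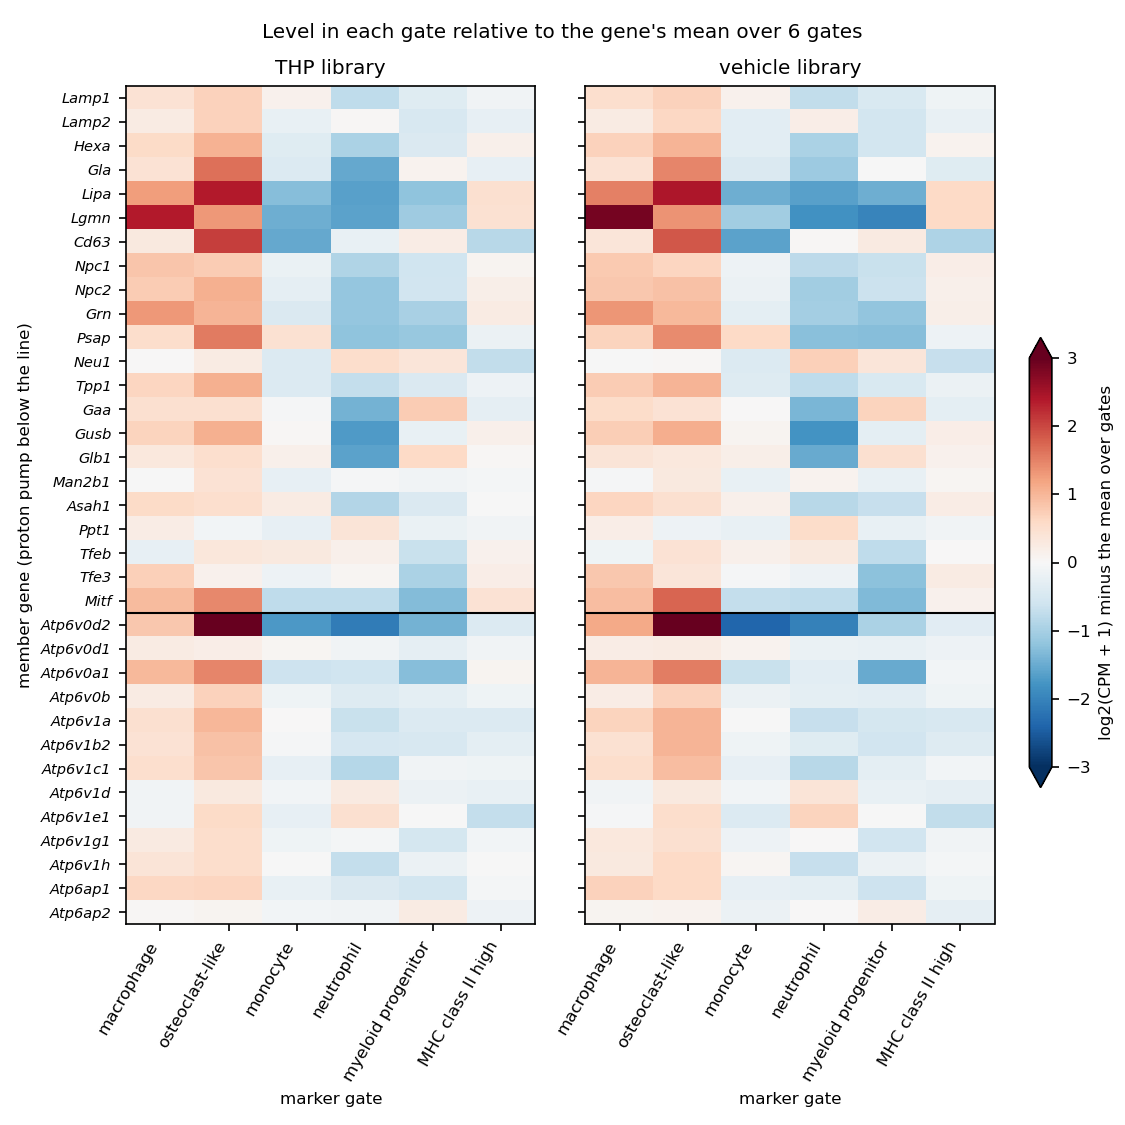
Level of each member at 10 CPM or more in a gate (rows, pump genes below the line) in the 6 gates (columns) of the THP library (left) and the vehicle library (right), as log2(CPM + 1) minus the gene's mean over the gates. The osteoclast-like column is the reddest in both libraries, Lgmn peaks in macrophages, and Atp6v0d2 has the strongest contrast (top over bottom gate 262 in both libraries).

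The d subunit genes of the pump showed the widest contrast between gates among the members and one of the narrowest. High Atp6v0d2 in Mmp12 cells of these data was known beforehand, and Mmp12 is a marker of the osteoclast-like gate. The Atp6v0d2 values there are therefore a description and no independent finding. Atp6v0d2 (ENSMUSG00000028238, chromosome 4, 19876841 to 19922605, minus strand) stood at 223 CPM (215 to 231) in THP and 229 CPM (222 to 237) in vehicle osteoclast-like cells. Macrophages had 13.02 (12.2 to 13.9) and 20.1 CPM (18.9 to 21.5), a gap of 17.1-fold and 11.4-fold. Monocytes had 1.42 CPM (19 UMIs) and 0.875 CPM (17 UMIs), and neutrophils 0.850 CPM (6 UMIs) and 1.38 CPM (14 UMIs). Atp6v0d1 (ENSMUSG00000013160, chromosome 8, 105524465 to 105566047, minus strand) ran from 102 CPM in progenitors to 145 CPM in macrophages with THP, and from 95.3 CPM in progenitors to 131 CPM in osteoclast-like cells with vehicle, a span of 1.43-fold and 1.37-fold.

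The osteoclast-like gate, 4.31% of THP and 4.49% of vehicle cells, gave 57.2% and 56.0% of all Atp6v0d2 UMIs. An Atp6v0d2 UMI was found in 71.3% of its THP cells (exact binomial 95% interval 67.2 to 75.1) and 70.0% of its vehicle cells (65.7 to 74.0), at median depths of 24223.5 and 28390 UMIs. With every cell thinned to 3000 UMIs, leaving out 31 and 34 shallower cells, the share was 37.3% in each library. Thinned macrophages gave 3.31% and 3.77%, and thinned neutrophils 0.230% and 0.422%, with 599 and 849 shallower neutrophils left out. In the unthinned neutrophil gate, with median depths of 3568 and 3601 UMIs, 0.408% and 0.688% of cells had a UMI. The source of these few UMIs was not tested. The level in osteoclast-like cells differed little between the libraries (log2 ratio -0.04, intervals overlapping), while in macrophages it was lower in THP (-0.59, and -0.38 with TMM factors). The 7 osteoclast-like markers were also lower in THP cells of the macrophage gate, summing to 329 and 478 CPM. What part osteoclast-like cells or their RNA had in the macrophage value of Atp6v0d2 was not tested.

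**Figure D5:**
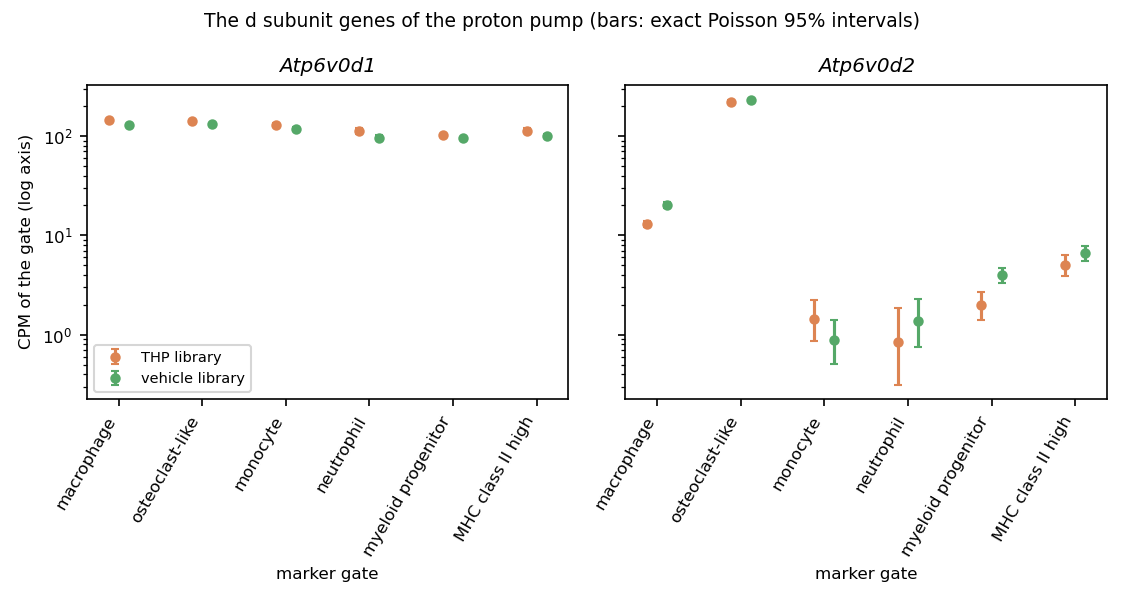
CPM (y axis, log scale) of Atp6v0d1 (left) and Atp6v0d2 (right) in the 6 gates of the THP library (orange) and the vehicle library (green); bars are exact Poisson 95% intervals, which cover counting error only. Atp6v0d1 stays between 95.3 and 145 CPM, and Atp6v0d2 runs from about 1 CPM in monocytes and neutrophils to 223 and 229 CPM in osteoclast-like cells.

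Other tested genes of the same organelle, listed by function, had log2 ratios from -1.06 to 0.58. That range is wider than the -0.64 to 0.35 of the tested members. Of 11 further pump genes, 4 reached 10 CPM, 3 of them higher in THP: Atp6v1f had a log2 ratio of 0.29, Atp6v0e 0.18, Tcirg1, the a subunit of osteoclasts, 0.00 and Atp6v0a2 -0.24. Among 24 further enzymes and activators 22 were tested, 9 higher and 13 lower, with the acid phosphatases Acp2 (0.58) and Acp5 (0.45) and the peptidase Dpp7 (0.36) at the top and Galc and Arsb (both -0.76) and Pla2g15 (-0.41) at the bottom. Of 22 further membrane and sorting genes 18 were tested, 9 each way. The sorting receptor Sort1 stood at 14.3 CPM (13.8 to 14.8) against 30.9 (30.2 to 31.7), a log2 ratio of -1.06. Sort1 was the only one of the 56 tested genes on these lists past 2-fold, and its ratio was -0.79 with TMM factors and -0.57 with the length trend removed. Ostm1 (-0.74) and Gnptab (-0.62) were also low, and Cd68 (0.33, also a marker of the macrophage gate), Tmem192 (0.25) and Clcn7 (0.22) were the highest.

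The nutrient-sensing genes that dock on the lysosome, 12 of 13 tested, were higher for 4 and lower for 8. Fnip1 (-0.82), Slc38a9 (-0.49) and Rptor (-0.49) were lowest and Lamtor5 (0.27), Rraga (0.20) and Lamtor2 (0.14) highest. The medians of the lists were 0.09 for the further pump genes, -0.10 for the enzymes, -0.09 for membrane and sorting genes and -0.24 for nutrient sensing, beside -0.18 for all genes. With TMM factors all 4 medians were above 0.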

How the data were processed

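The deposited files hold raw UMI counts of each gene in each cell, stored as sparse matrices, software version 3.1.0 and format version 2, per the file headers; the submitters' processing notes name Cell Ranger, bcl2fastq, STAR and the genome build mm10. The annotation release, and how reads shared between gene copies were treated, are not stated there. Cells with at least 500 genes, at least 1000 UMIs and at most 10% mitochondrial UMIs were kept. No doublets and no free RNA were removed, and no doublet caller was run. Gates took the highest mean z score of log(1 + UMIs per 10000) over marker lists, if over 0.5 and 0.25 above the next; 11 gates were defined. Log2 ratios used a pseudocount of 1 CPM. A gene passed the size rule at 2-fold with 10 CPM in at least 1 library; no p-value was computed. On simulated counts with counting error only, the rule was checked to recover known changes. Such counts hold no spread between cultures, so this checks the code and not how the rule serves these data. TMM and RLE factors came from edgeR 4.0.16 in R 4.3.3, the length trend from a lowess fit (fraction 0.3, statsmodels 0.14.6) on GENCODE M21 transcripts, which matched 99.9% of gene identifiers, and pseudogene identity from blastn 2.17.0. All 37 members are covered; full values go to the 4 highest and 4 lowest ratios at 10 CPM in each class, the d subunits, 4 regulators, and the 5 members with the widest span across gates, ranked by the smaller of the 2 libraries' spans (Atp6v0d2, Lipa, Lgmn, Cd63 and Mitf), and other lists give up to 3 highest and 3 lowest. Alternatives changed the scaling, pseudocount, minimum level, fold, gate limits, cell weights and cell filters. Members, lists and tests were chosen with earlier results of these data known, among them the high Atp6v0d2 of Mmp12 cells.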

Additional observations from a re-analysis of the deposited data

Results flagged for a closer look

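For 5 members the difference between the libraries went opposite ways in 2 gates, with the counting intervals apart in both gates. The share of all genes that did so was not counted, so the 5 are not read as particular to the members. Such intervals were apart for many genes, in the macrophage gate for 22.3% with the higher and 53.3% with the lower value in THP. The difference between gates was not tested, since each gate has 1 library per group. Lgmn had a log2 ratio of 1.24 in the myeloid progenitor gate and -0.16 in the macrophage gate. Cd63 had 0.14 in the osteoclast-like gate and -0.33 in the neutrophil gate, and Npc2 had 0.17 and -0.13 in the same gates. Mitf had 0.23 in the MHC class II high gate and -0.39 in the osteoclast-like gate. Atp6v1e1 had 0.21 in the monocyte gate and -0.14 in the neutrophil gate. With TMM factors the lower value turned above 0 for Lgmn (0.06), Npc2 (0.15) and Atp6v1e1 (0.14), and stayed below 0 for Cd63 (-0.05) and Mitf (-0.19).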

How the results depend on the processing

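No paired analysis was possible because there was 1 library per group, and for the same reason no replicate could be left out. The count of members with a lower THP value over all kept cells, 22, became 6 with TMM factors, 6 with RLE factors and 12 with the length trend removed. Among all 8012 tested genes the count was 5416, and it became 3302, 3348 and 3890 in the same order. The median of the pump genes became 0.23 (TMM), 0.22 (RLE) and 0.17 (length), and that of the other members 0.20, 0.19 and 0.071. Their difference of 0.016 became 0.097 with the length trend removed and -0.011 with a minimum of 1 CPM or none. Counts of lower members inside the gates were 31 (macrophage), 24 (osteoclast-like), 28 (monocyte), 26 (neutrophil), 20 (progenitor) and 21 (MHC class II high). With TMM factors these became 15, 13, 13, 13, 9 and 10 in that order, and with the length trend removed 20, 15, 15, 14, 9 and 14. Of all genes, TMM factors left 3548 of 7942, 3674 of 7686, 3829 of 7735, 3570 of 6970, 3996 of 7883 and 3962 of 7882 lower. Removing the length trend left 3877, 3783, 3754, 3388, 3820 and 3832 genes lower. A 1.5-fold rule called 1 member lower over all cells, and 5, 1, 1, 4 and 3 in the macrophage, osteoclast-like, monocyte, neutrophil and MHC class II high gates, where 2-fold called 0. The gap of Atp6v0d2 between osteoclast-like and macrophage gates, 17.1-fold in THP and 11.4-fold in vehicle, was 20.9 and 15.7 with stricter gates, 15.5 and 9.83 without Acp5 and Ctsk as markers, 15.2 with equal weight per cell in THP, and 9.44 with looser gates and 12.4 without the deepest 5% of cells in vehicle. Thinning to 3000 UMIs took the share of osteoclast-like cells with an Atp6v0d2 UMI to 37.3% in both libraries. Between 19 and 24 members were highest in the osteoclast-like gate under the 5 alternatives tried. The log2 ratio of Lgmn in progenitors was 1.03 with stricter gates, 1.27 with looser ones and 1.43 without the deepest cells. The alternatives of leaving out shared barcodes and of taking Lgmn in cells without C1q UMIs were chosen after seeing the data. The cause of these shifts was not tested. With 1 library per group the depth sets counting error only, and the spread between cultures is unknown.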

Other observations

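Some gates under 200 cells per library had high levels of single members. Mast cells or basophils (97 THP and 86 vehicle cells) had Man2b1 at 332 and 467 CPM, above all 6 compared gates, and Cd63 at 1419 and 927 CPM. Stromal cells (97 and 87) had Cd63 at 1117 and 1179 CPM and Npc2 at 804.5 and 678 CPM. B-lineage cells had Lgmn at 181 and 195 CPM, while the 10 macrophage markers summed to 3018 and 4992 CPM in that gate; the part of macrophage RNA there was not tested. Members took 0.718% and 0.673% of UMIs in mast cells or basophils and 0.440% and 0.590% in B-lineage cells.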
